A study of Mus musculus with 6 samples.

Results

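The level of 10 genes that mark macrophages of fat was followed in epididymal white adipose tissue (eWAT), a visceral fat depot of male mice, after a day in the cold. The 10 genes were taken by name from the 23492 mouse genes with reads, and every annotated transcript of each gene was counted. They fall by role into 3 resident markers (Retnla, Mrc1, Cd163), 4 general markers (Lyz2, Cd68, Adgre1, Csf1r), 2 lipid-associated markers (Trem2, Gpnmb) and 1 marker of recruited monocytes (Ccr2). The cold group held 3 mice (cold 7, cold 12 and cold 16), each kept alone at 4 °C for 24 h before the tissue was taken. The ctrl group held 3 mice (ctrl 5, ctrl 6 and ctrl 10), for which the labels give no cold exposure and do not say whether they were housed alone. All 6 were wild type C57BL/6N males, with base housing at 22 to 24 °C, and the labels' protocols give an age of 20 weeks. Poly-A RNA, 100 ng for each library, was sequenced as unamplified cDNA with Nanopore long reads. Each mouse is a separate sample of whole fat pad, so adipocytes, stroma, vessels and blood cells contributed RNA along with macrophages.

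Macrophages of healthy fat are mostly resident cells that lie along vessels and between adipocytes, take up debris and carry scavenger receptors. Monocytes enter the tissue through the chemokine receptor Ccr2 and its ligand Ccl2, and cells that take up lipid from dying adipocytes can switch on Trem2, Gpnmb and lysosomal genes. Survival of most tissue macrophages depends on the receptor Csf1r and its ligands Csf1 and Il34. In fat, macrophage numbers are best known for their increase in obesity, and lipid released by adipocytes is among the signals described for them.

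None of the 10 markers passed the threshold between cold and ctrl mice (edgeR quasi-likelihood test, Benjamini-Hochberg adjusted p below 0.05 over all genes tested). All 10 had enough reads to be tested, with 97 to 4984 reads over the 6 mice, and their adjusted p (edgeR) lay between 0.552 and 0.999. Of the 9772 genes tested, 64 passed, or 0.655%, 53 of them higher (0.542%) and 11 lower (0.113%) in the cold. That number was 199 without cold 7, 35 without cold 12 and 106 without ctrl 5. The count for the markers was also 0 by DESeq2 and by limma-voom. At an unadjusted edgeR p under 0.05 there was 1 marker of the 10, Trem2, where 8.43% of all tested genes had such a p. The median log2 fold change of the 10 markers, cold minus ctrl, was -0.09, and that of all tested genes was 0.01. In whole tissue, fewer cells of a type and less RNA per cell cannot be told apart.

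**Figure D1:**
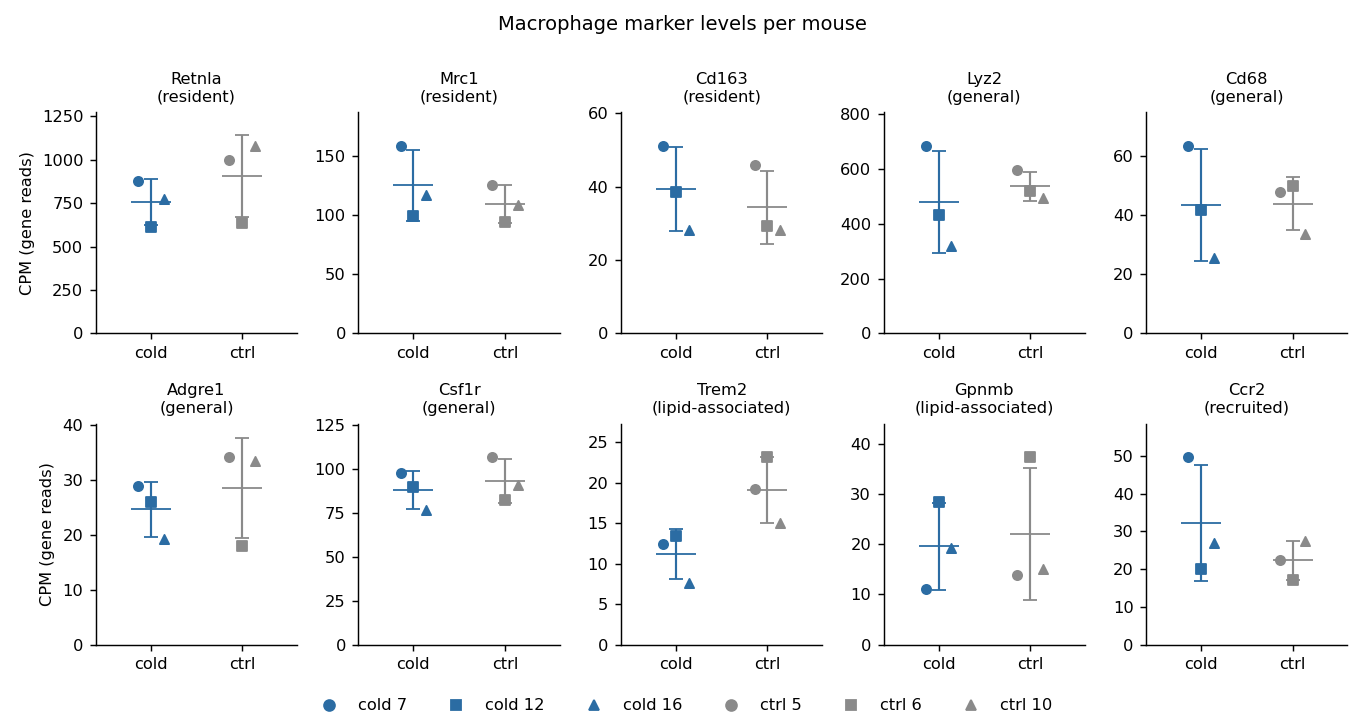
Level of each marker per mouse as CPM, reads scaled to a common library total (vertical axis from 0), with cold mice on the left and ctrl mice on the right of each panel. Bars are the mean and SD of 3 mice. The groups overlap in 9 panels, and only for Trem2 do the cold mice (7.66 to 13.4 CPM) lie below all ctrl mice (15.0 to 23.1 CPM).

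Among the resident markers, Retnla (ENSMUSG00000061100.4, GRCm38 chromosome 16, 48842551 to 48844461) encodes resistin-like alpha, a small secreted protein that macrophages make in response to interleukin 4. Its level in CPM, the reads of a gene scaled to a common total of gene reads, was 877 in cold 7, 613 in cold 12 and 773 in cold 16, against 1001 in ctrl 5, 635 in ctrl 6 and 1078 CPM in ctrl 10. Cold 12 and ctrl 6 were both low, so the groups overlapped. Retnla averaged 754 ± 133 CPM in cold mice and 905 ± 237 CPM in ctrl mice (SD, n = 3 each). The difference on the log2 scale, cold minus ctrl, was -0.24 ± 0.17 (SE), with a 95% interval of -0.60 to 0.13 (edgeR adjusted p = 0.813). It was -0.44 without ctrl 6, the ctrl mouse with the lowest level, and -0.08 without ctrl 10.

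Mrc1 (ENSMUSG00000026712.3, chromosome 2, 14229392 to 14332057) encodes the mannose receptor, an endocytic receptor for glycoproteins. It had 159 CPM in cold 7, 99.8 in cold 12 and 118 in cold 16, and 126 CPM in ctrl 5, 94.1 in ctrl 6 and 109 in ctrl 10. Cold 7 was the highest of all mice, while cold 12 lay next to the lowest ctrl mouse. Mrc1 had a log2 fold change of 0.21 ± 0.18 (SE, edgeR adjusted p = 0.840), and without cold 7 it was -0.0034.

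Cd163 (ENSMUSG00000008845.9, chromosome 6, 124304656 to 124330527) encodes the scavenger receptor for haemoglobin bound to haptoglobin. It had 51.0, 38.6 and 28.1 CPM in cold 7, 12 and 16, against 45.9, 29.1 and 28.2 CPM in ctrl 5, 6 and 10. The ranges of the groups were nearly the same. Cd163 had a log2 fold change of 0.23 ± 0.25 (SE, edgeR adjusted p = 0.899), and it was 0.02 without cold 7.

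The general markers were led by Lyz2 (ENSMUSG00000069516.8, chromosome 10, 117277331 to 117282321), the lysozyme of macrophages, monocytes and neutrophils. Lyz2 had 684 CPM in cold 7, 432 in cold 12 and 319 in cold 16, against 596, 519 and 495 CPM in ctrl 5, 6 and 10. The cold mice held both the highest and the lowest level, and the ctrl mice lay between. Relative to the mean, the SD of Lyz2 was 39.0% in cold mice and 9.85% in ctrl mice, where counting error alone gives 5.07% and 4.08%. Lyz2 had a log2 fold change of -0.14 ± 0.19 (SE, edgeR adjusted p = 0.920). It was -0.50 without cold 7 (edgeR adjusted p = 0.149, the lowest over its 14 alternatives, where it ran up to 1) and 0.09 without cold 16.

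Lyz2 has a close copy, Lyz1, beside it on chromosome 10, and how the authors' counting split reads between them is not given in the sources used here. The coding sequences have 447 bases each and differ at 22, an identity of 95.1%, and 11 of these differences lie in the first 120 coding bases. These stretches, from the GENCODE M21 transcripts (GRCm38, minus strand, chr10:117282123-117282242 for Lyz2 and chr10:117292719-117292838 for Lyz1), are shown because they tell the copies apart, with the differing bases in capitals:
Lyz2: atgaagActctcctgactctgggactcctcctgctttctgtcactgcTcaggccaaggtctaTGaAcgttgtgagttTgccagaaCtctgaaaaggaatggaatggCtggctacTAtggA
Lyz1: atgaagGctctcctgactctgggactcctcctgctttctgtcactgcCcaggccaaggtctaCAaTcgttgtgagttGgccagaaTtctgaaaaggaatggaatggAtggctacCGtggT
Lyz1 was assigned 122 reads in cold and 173 in ctrl mice, against 1261 and 1815 for Lyz2. The log2 fold change of both was the same to 2 decimals, -0.14 (Lyz1, edgeR adjusted p = 0.932).

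Cd68 (ENSMUSG00000018774.13, chromosome 11, 69664213 to 69666153) encodes a glycoprotein of lysosomes. It had 63.4 CPM in cold 7, 41.9 in cold 12 and 25.5 in cold 16, and 48.0, 50.02 and 33.5 CPM in ctrl 5, 6 and 10. As for Lyz2, cold 7 was the highest and cold 16 the lowest of all 6 mice. Cd68 had a log2 fold change of 0.0024 ± 0.26 (SE), with a 95% interval of -0.54 to 0.55 (edgeR adjusted p = 0.999).

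Adgre1 (ENSMUSG00000004730.15, chromosome 17, 57358691 to 57483527) encodes the F4/80 antigen, the classical surface marker of mouse macrophages. It had 29.0, 26 and 19.2 CPM in cold 7, 12 and 16, against 34.1, 17.9 and 33.5 CPM in ctrl 5, 6 and 10. Its SD in cold mice was 20.3% of the mean, and counting error alone gives 21.9%. Adgre1 had a log2 fold change of -0.15 ± 0.28 (SE, edgeR adjusted p = 0.950).

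Csf1r (ENSMUSG00000024621.16, chromosome 18, 61100598 to 61132149) encodes the receptor kinase for Csf1 and Il34. It had 97.9, 89.7 and 76.6 CPM in cold 7, 12 and 16, against 107, 82.1 and 90.9 CPM in ctrl 5, 6 and 10. The SD was 12.2% of the mean in cold and 13.3% in ctrl mice, close to the 11.5% and 9.80% of counting error. The log2 fold change of Csf1r was -0.05 ± 0.16 (SE), with a 95% interval of -0.39 to 0.29 (edgeR adjusted p = 0.973), the narrowest interval of the 10 markers. Csf1r overlaps Hmgxb3 on the opposite strand, which had 45 reads in all, against 551 for Csf1r.

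**Figure D2:**
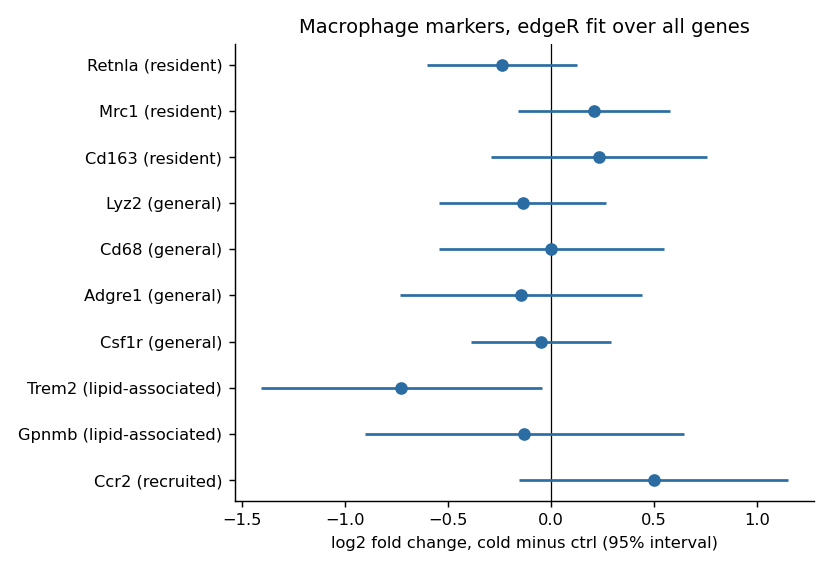
Log2 fold change of each marker, cold minus ctrl (points), with its 95% interval (lines), from the edgeR fit over all genes, in order of role from top to bottom. The intervals of 9 markers span 0, and that of Trem2 runs from -1.41 to -0.05.

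The lipid-associated marker Trem2 (ENSMUSG00000023992.14, chromosome 17, 48346401 to 48354147) encodes a surface receptor that binds lipids and signals through the adaptor Tyrobp. It had 9 reads in cold 7, 16 in cold 12 and 6 in cold 16, against 18 in ctrl 5, 31 in ctrl 6 and 17 in ctrl 10. Scaled to library size these were 12.4, 13.4 and 7.66 CPM in the cold mice, and 19.2, 23.1 and 15.0 CPM in the ctrl mice. All cold mice lay below all ctrl mice. Trem2 was the only one of the 10 markers without overlap, where 13.7% of all tested genes had no overlap in either direction, 7.7% with cold lower and 5.96% with cold higher.

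Trem2 averaged 11.2 ± 3.07 CPM in cold mice and 19.1 ± 4.07 CPM in ctrl mice (SD, n = 3 each). Its log2 fold change was -0.73 ± 0.33 (SE), with a 95% interval of -1.41 to -0.05, an unadjusted edgeR p of 0.0378 and an edgeR adjusted p of 0.552. It ranked 666 by p among the 9772 genes. The sign was the same in the 13 alternatives that tested Trem2, with log2 fold changes of -0.92 to -0.53, and the adjusted p was 0.492 at the lowest and 1 at the highest. Its SD of 27.5% in cold and 21.3% in ctrl mice was about that of counting error, 33.1% and 21.9%.

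Gpnmb (ENSMUSG00000029816.10, chromosome 6, 49036546 to 49070929) encodes a transmembrane glycoprotein of lysosome-rich phagocytes. It had 8, 34 and 15 reads in cold 7, 12 and 16 (11.0, 28.5 and 19.2 CPM), against 13, 50 and 17 reads in ctrl 5, 6 and 10 (13.9, 37.3 and 15.0 CPM). Each group had 1 mouse well above the others, cold 12 and ctrl 6. Gpnmb had a log2 fold change of -0.13 ± 0.37 (SE, edgeR adjusted p = 0.965), and it was 0.53 without ctrl 6 and -0.57 without cold 12. The groups overlapped for Gpnmb, unlike for Trem2, and the difference between the genes was not tested.

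Ccr2 (ENSMUSG00000049103.14, chromosome 9, 124101950 to 124113557) encodes the receptor of Ccl2 that monocytes use to enter tissue. It had 36, 24 and 21 reads in cold 7, 12 and 16 (49.6, 20.1 and 26.8 CPM), and 21, 23 and 31 reads in ctrl 5, 6 and 10 (22.4, 17.2 and 27.4 CPM). Only cold 7 lay above the ctrl mice. Ccr2 had a log2 fold change of 0.50 ± 0.31 (SE), with a 95% interval of -0.15 to 1.15 (edgeR adjusted p = 0.752). Without cold 7 it was 0.06, and the groups then differed by less than the spread between mice.

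Resident markers were set against lipid-associated and recruited ones by summing CPM per mouse. These sums are given as a description with no test. The resident sum was 1086, 751 and 918 CPM in cold 7, 12 and 16, against 1173, 759 and 1215 CPM in ctrl 5, 6 and 10. Trem2 and Gpnmb together had 23.4, 41.9 and 26.8 CPM in the cold mice and 33.1, 60.5 and 30.01 CPM in the ctrl mice. The ratio of the resident sum to the sum of Trem2, Gpnmb and Ccr2 was 14.9, 12.1 and 17.1 in the cold mice, against 21.1, 9.77 and 21.2 in the ctrl mice. Cold mice thus lay inside the range of ctrl mice, and the low ratio of ctrl 6 went with its high Gpnmb and low Retnla.

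Most reads of the resident sum were from Retnla, so the sum was also taken over Mrc1 and Cd163 alone, a choice made after seeing the data. It was then 210, 138 and 146 CPM in cold 7, 12 and 16, and 172, 123 and 137 CPM in ctrl 5, 6 and 10, higher in the cold on average (165 ± 39.2 and 144 ± 25 CPM, SD, n = 3 each) where the sum with Retnla was lower (919 ± 168 and 1049 ± 252 CPM). The groups overlapped in both. Set against the general markers, Mrc1 and Cd163 had a ratio of 0.240, 0.235 and 0.330 in the cold mice, and 0.219, 0.184 and 0.209 in the ctrl mice. The cold mice were all above the ctrl mice in that ratio, which was not tested, since it was formed after the values were seen. Most of the general sum was Lyz2, with 684 of 874 CPM in cold 7, 432 of 590 in cold 12 and 319 of 441 in cold 16. In ctrl 5, 6 and 10 Lyz2 held 596 of 785, 519 of 669 and 495 of 653 CPM. The ratio was thus set largely by Lyz2, and it was not taken without Lyz2. Of all tested genes 13.7% had CPM without overlap between the groups, 5.96% with cold higher. These shares are for single genes, and none was counted for ratios of sums. With Retnla the ratio to the general markers was 1.243, 1.275 and 2.084 in cold 7, 12 and 16. It was 1.495, 1.134 and 1.861 in ctrl 5, 6 and 10, and the groups overlapped.

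The wider macrophage programme was read from 8 lists of genes, 121 genes without the markers themselves, of which 80 were tested. None of the 80 passed the threshold (edgeR), 43 had a positive and 37 a negative log2 fold change, and their median was 0.03 beside 0.01 for all genes. At an unadjusted edgeR p under 0.05 there were 9, or 11.2%, against 8.43% of all tested genes. DESeq2 and limma-voom also gave 0. Without cold 7 there were 3 (Ccl24, Cx3cl1 and Mgl2), and with no filter on low counts there were 4 (Ccl6, Cd52, Cx3cl1 and Mgl2). Over all 6 mice Ccl24 and Mgl2 had negative log2 fold changes (-0.62 and -0.71), and Ccl6 and Cd52 positive ones (0.67 and 0.82). Cx3cl1, which the filter left untested, had 28 reads in cold and 7 in ctrl mice. The median of the tested list genes was -0.10 without cold 7 and 0.08 without cold 16.

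Of 20 other general macrophage genes 17 were tested and 0 passed, with 9 positive and 8 negative and a median of 0.04. The complement genes C1qa, C1qb and C1qc, which resident macrophages make in large amounts, had 320 ± 36.9, 165 ± 55.8 and 197 ± 48.3 CPM in cold mice, against 295 ± 66.9, 163 ± 14.02 and 184 ± 22.6 CPM in ctrl mice (SD, n = 3 each). Cd53, a tetraspanin of leukocytes, had 55.2 ± 25.4 CPM in cold and 73.3 ± 4.74 CPM in ctrl mice (edgeR adjusted p = 0.715). Aif1, an actin-binding protein of macrophages, had 11.0 ± 1.84 and 16.3 ± 3.59 CPM in cold and ctrl mice, and Ms4a7 had 21.1 ± 2.19 and 17.1 ± 2.87 CPM. On the log2 scale the differences, cold minus ctrl, were -0.40 for Cd53, -0.53 for Aif1 and 0.33 for Ms4a7.

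Of 19 other resident genes 17 were tested and 0 passed, with a median of 0.04. Ccl6, a chemokine of macrophages, had 631, 257 and 160 CPM in cold 7, 12 and 16, against 245, 190 and 235 CPM in ctrl 5, 6 and 10 (edgeR adjusted p = 0.555). Cd209g, a C-type lectin gene, had 12.2 ± 7.81 CPM in cold and 21.5 ± 3.77 CPM in ctrl mice, and the ficolin gene Fcna had 47.9 ± 22.1 and 31.2 ± 14.2 CPM (edgeR adjusted p = 0.564 and 0.580). Among perivascular markers, Lyve1, a hyaluronan receptor, and Folr2, a folate receptor, had log2 fold changes of 0.46 ± 0.34 and -0.10 ± 0.27 (SE). Timd4, a phosphatidylserine receptor of long-lived resident macrophages, had 7 reads in cold and 11 in ctrl mice and was not tested.

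Of 20 other lipid-associated genes 16 were tested and 0 passed, with a median of 0.04. Adipocytes and other cells also express several of them, such as Fabp5 and Apoe. Fabp5, a fatty acid binding protein, had 235 ± 17.3 CPM in cold and 178 ± 23.7 CPM in ctrl mice (edgeR adjusted p = 0.318). The lysosomal protease gene Ctsd had 773 ± 34.0 and 654 ± 38.5 CPM in cold and ctrl mice (edgeR adjusted p = 0.567). Apoe, an apolipoprotein that Trem2 can bind, had 5486 ± 702 and 6389 ± 824 CPM (edgeR adjusted p = 0.790). The 16 tested genes had 97 to 36998 reads over the 6 mice, and the other 4 had too few to test. Of these, Spp1 had 8 reads in cold and 6 in ctrl mice, Itgax, which encodes CD11c, 16 and 36, Atp6v0d2 12 and 18, and Tfec 6 and 5.

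The monocyte list had 7 of 15 genes tested and 0 past the threshold, with a median of 0.01. Ly6c2, the defining surface marker of classical monocytes, had 25 reads in cold and 30 in ctrl mice. Cd52, a surface peptide of leukocytes, had 185, 30.2 and 31.9 CPM in cold 7, 12 and 16, against 43.7, 41.1 and 49.4 CPM in ctrl 5, 6 and 10, so that only cold 7 was high, as for Ccr2. S100a6 had 1106 ± 332 CPM in cold and 900 ± 303 CPM in ctrl mice, and the proteoglycan gene Vcan had 10.0 ± 2.16 and 15.2 ± 7.04 CPM.

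For the ligands, the question is whether signals that feed the receptors differed. Of 16 ligand and chemokine genes 8 were tested and 0 passed, with a median of -0.01. The ligands of Csf1r were Csf1, at 40.3 ± 5.58 CPM in cold and 37.5 ± 12.1 CPM in ctrl mice, and Il34, at 55.6 ± 20.4 and 39.9 ± 6.21 CPM (edgeR adjusted p = 0.573). The ligand of Ccr2, Ccl2, had 55.2, 10.1 and 6.39 CPM in cold 7, 12 and 16, against 17.1, 14.2 and 32.7 CPM in ctrl 5, 6 and 10. Cold 7 was highest and cold 16 lowest of all mice, and cold 7 was also the mouse with the most Ccr2. Mif, a cytokine that many cells make, had the smallest p among the 80 genes, with 148 ± 12.6 CPM in cold and 106 ± 4.60 CPM in ctrl mice (edgeR adjusted p = 0.164), and Cxcl12 had 118 ± 9.47 and 148 ± 37.4 CPM.

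Of 14 partners of Trem2 and Csf1r signalling 12 were tested and 0 passed. Tyrobp, the adaptor through which Trem2 signals, had 95.6 ± 26.2 CPM in cold and 93.8 ± 10.2 CPM in ctrl mice, a log2 fold change of 0.04 ± 0.18 (SE) beside the -0.73 of Trem2. Pik3r1, a subunit of PI3-kinase used by many receptors, had 240 ± 38.1 and 185 ± 27.0 CPM in cold and ctrl mice (edgeR adjusted p = 0.387). Abca1, a cholesterol exporter gene, had 87.3 ± 5.56 and 104 ± 26.4 CPM.

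Of 15 inflammatory genes 2 were tested and 0 passed. Tlr4, a receptor for bacterial lipid, had 15.7 ± 6.97 CPM in cold and 18.5 ± 0.81 CPM in ctrl mice, and the chemokine gene Ccl5 had 10.48 ± 5.53 and 12.6 ± 5.43 CPM. Among those with too few reads to test, Tnf had 1 read in cold and 0 in ctrl mice, Il1b 2 and 1, Il6 0 and 1, and Nos2, the largest of them, 19 and 28 reads. Of the 14 alternative activation genes, which include Retnla and Mrc1, 9 were tested and 0 passed, with a median of -0.09. Mgl2, a lectin of alternatively activated macrophages, had 39.0 ± 31.0 CPM in cold and 62.7 ± 24.3 CPM in ctrl mice (edgeR adjusted p = 0.645). The chemokine gene Ccl24 had 22.6 ± 12.7 and 34.0 ± 5.53 CPM, and Klf4 had 57.3 ± 5.30 and 78.7 ± 22.6 CPM.

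**Figure D3:**
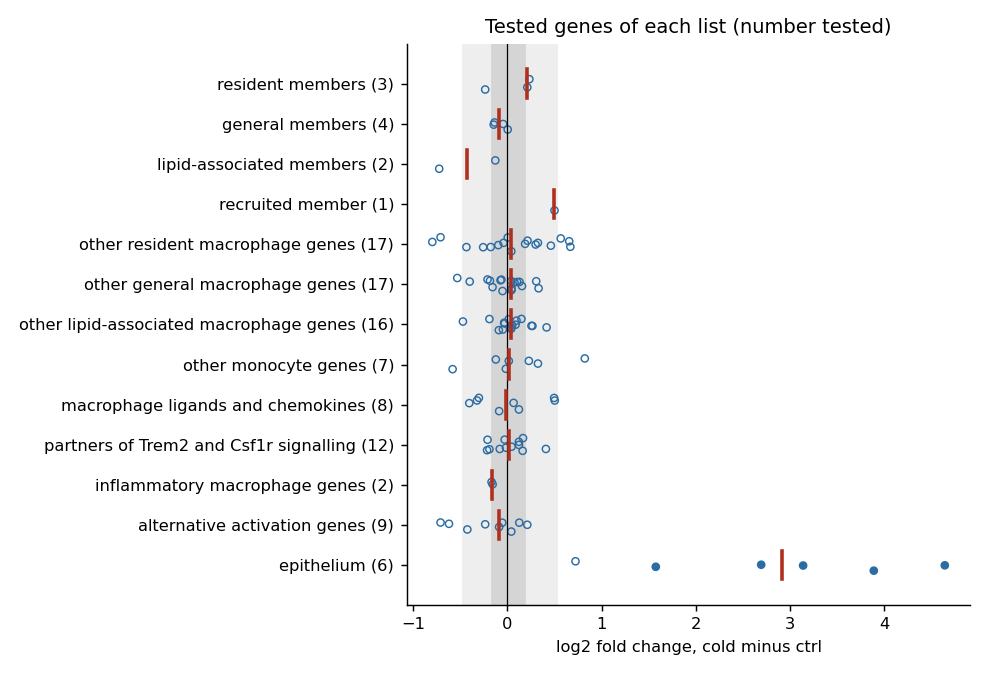
Log2 fold change, cold minus ctrl, of each tested gene (circles, filled where the edgeR adjusted p is below 0.05) in the marker groups, the macrophage lists and an epithelial list. Red lines are medians, and the dark and light bands hold the middle 50% and 90% of all tested genes. No macrophage gene is filled, while 5 of 6 epithelial genes are.

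Markers of other cell types give the setting of these levels. Epithelial genes, of which 5 of 6 tested rose in the cold (Krt8, Krt18, Epcam, Spint2 and Cldn7) and 1, Krt19, did not pass, had a summed level of 165 to 276 CPM in cold mice and 27.6 to 70.4 CPM in ctrl mice. Krt8, a keratin, had 35.8 ± 12.0 CPM in cold and 4.46 ± 2.99 CPM in ctrl mice (edgeR adjusted p = 0.000105). Spint2 passed in all 14 alternatives, while Epcam did not by DESeq2, Cldn7 did not without cold 12, and neither did where 10 reads were required in 3 libraries. With X1 files alone only Krt8 and Spint2 of these 5 passed, and with X2 files alone only Spint2. Epithelial RNA thus differed between the groups, and its part in the macrophage values was not tested. Adipocyte markers summed to 67755 to 75629 CPM in cold and 71990 to 77460 CPM in ctrl mice, with 1 of 12 higher. This was Pnpla2, the lipase that starts the release of fatty acids from stored fat, at 1912 ± 91.8 CPM in cold and 1243 ± 89.98 CPM in ctrl mice (edgeR adjusted p = 0.00971). Pnpla2 did not pass with protein-coding transcripts only, without cold 12 or without ctrl 6. Cfd, the adipocyte protease adipsin, had 10879 ± 760 CPM in cold and 15536 ± 914 CPM in ctrl mice (edgeR adjusted p = 0.0857). It passed by DESeq2, by limma-voom, with X2 files alone and with no filter. Lep, the leptin gene, went the other way, with 685 ± 184 and 437 ± 44.4 CPM in cold and ctrl mice (edgeR adjusted p = 0.0628). Lep passed with X1 files alone, with X2 files alone, with no filter and without cold 7. The neutrophil genes, which matter for Lyz2, summed to 14.3 to 37.2 CPM in cold and 9.71 to 32.1 CPM in ctrl mice, with Ly6g, Mpo and Ngp at 0. Dendritic cell genes summed to 82.7 to 110 CPM in cold and 76.9 to 85.6 CPM in ctrl mice. Of that sum Cd24a held 22.1, 57.9 and 35.8 CPM in cold 7, 12 and 16. In ctrl 5, 6 and 10 it held 24.5, 9.71 and 15.9 CPM. Cd24a was short of the threshold (edgeR adjusted p = 0.0793), and it passed without cold 7, without ctrl 5 and with no filter. Its log2 fold change was 1.36, while the other tested dendritic cell genes, Zbtb46 and Irf8, had -0.15 and -0.31. Genes of eosinophils and mast cells summed to 10.2 to 52.4 CPM in cold and 30.9 to 46.9 CPM in ctrl mice. Genes of T, B and NK cells summed to 20.4 to 24.3 and 22.9 to 39.5 CPM. Few of these immune genes had enough reads to test. Tested were 3 of 10 dendritic cell genes, 1 of 10 neutrophil genes and 2 of 10 genes of eosinophils and mast cells. Of the 14 genes of T, B and NK cells 0 were tested. Of the tested immune, fibroblast (10), endothelial (10) and mesothelial (6) genes, 0 passed.

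The cold mice differed among themselves, with cold 7 often the highest and cold 16 often the lowest. The order was not shared by all markers. In cold 12, Trem2 and Gpnmb were the highest of the cold mice, and Retnla, Mrc1 and Ccr2 the lowest. For 8 of the 10 markers cold 7 was the highest of the cold mice, which held for 31.4% of all tested genes. The same was found for 14 of 17 other general, 12 of 17 other resident and 10 of 16 other lipid-associated genes. Cold 16 was the lowest of the cold mice for 6 of the 10 markers, 12 of 17 other general and 12 of 17 other resident genes, against 34.6% of all tested genes. The sum of the 4 general markers was 874, 590 and 441 CPM in cold 7, 12 and 16, and 785, 669 and 653 CPM in ctrl 5, 6 and 10. These orders were counted after the values were seen and is a description of these mice. Lists of other cell types ran the same way or another. Fibroblast genes summed to 10826, 9877 and 8626 CPM in cold 7, 12 and 16, mesothelial genes to 237, 129 and 123 CPM, and genes of eosinophils and mast cells to 52.4, 32.7 and 10.2 CPM, the order of the general markers. Endothelial genes ran the opposite way, with 779, 898 and 1014 CPM, and epithelial genes had 165, 276 and 235 CPM. The part of these cell types in the order of the cold mice was not tested.

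**Figure D4:**
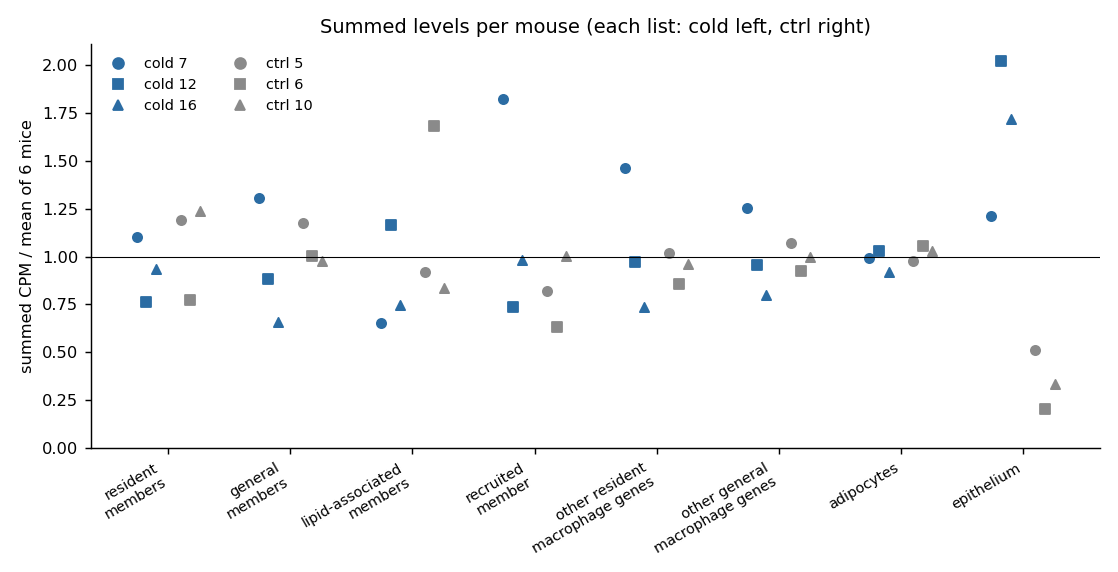
Summed level of each gene list per mouse, divided by the mean of the 6 mice (vertical axis from 0), with cold mice left and ctrl mice right in each list. Cold 7 is highest and cold 16 lowest for the general markers and for the other resident and general genes, and the groups are apart only for the epithelial list.

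Likeness to the general markers was measured as the root mean square difference, over the 6 mice, of log2 CPM centred on each gene's mean. Among 7017 genes with a mean of at least 20 reads the nearest were Ext2 (0.0343), Rhobtb1 (0.0576), Snrpa1 (0.0623), Fbxl17 (0.0651) and Mbnl2 (0.0680), where the median gene was at 0.334. None of these is in a macrophage list. The general markers themselves stood at 0.36, -0.05 and -0.48 in cold 7, 12 and 16, and at 0.23, -0.09 and 0.02 in ctrl 5, 6 and 10.

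Long reads were assigned to annotated transcripts, so the form of each marker could be followed as well. None of the tested transcripts of the markers passed the threshold (edgeR, 47 of all 12325 tested transcripts did, 0.381%). None of the tested marker transcripts had an unadjusted edgeR p under 0.05, where 6.87% of all tested transcripts had. Several marker transcripts had too few reads to test, among them every form of Trem2. The count past the threshold was 0 in the 9 alternatives run. Transcript usage, meaning how reads divide among the forms of 1 gene, was tested for Mrc1, Cd163, Csf1r and Ccr2 and did not pass in any (diffSpliceDGE of edgeR, adjusted p = 1.00 each). Over all 2624 genes tested that way 0 passed, or 0%, and 25 (0.953%) had an unadjusted Simes p under 0.05. None of the 4 markers did.

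Retnla and Lyz2 each have 1 annotated transcript, and 262 of 266 Cd68 reads and 136 of 137 Gpnmb reads were on 1 transcript each. Mrc1 reads were on the coding transcript Mrc1-201 or on Mrc1-202, a retained intron form. The retained intron form took 18.4% of Mrc1 reads in cold mice (60 of 326, exact binomial 95% interval 14.3% to 23.0%) and 15.5% in ctrl mice (57 of 367, 12.0% to 19.6%). It ranged from 11.9% in ctrl 5 to 20.7% in cold 16, and the groups overlapped. Csf1r-202 took 60.9% of Csf1r reads in cold and 62.9% in ctrl mice, and Csf1r-201 took 36.1% and 34.8%. For Adgre1, Adgre1-202 took 91.0% in cold and 89.4% in ctrl mice and Adgre1-201 had the 16 remaining reads. Both forms have the same coding sequence. The 4 Ccr2 transcripts also share a coding sequence and differ outside it. Ccr2-203 took 50.6% of reads in cold and 49.3% in ctrl mice, Ccr2-202 took 38.3% and 42.7%, and Ccr2-201 had 10 reads.

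Cd163 was split between coding transcripts that differ near the end of the reading frame. Cd163-201 took 51.4% of reads in cold mice and 48.2% in ctrl mice, Cd163-202 took 37.1% and 37.7%, and the retained intron form Cd163-203 took 11.4% and 14.04%. Cd163-202 holds an insert of 83 coding bases (chr6:124328962-124329044, plus strand of GRCm38). The insert is not a whole number of codons, so the frame after it changes and the annotated stop codon lies further on. The coding sequence has 3480 bases with the stop codon in Cd163-202 and 3366 in Cd163-201, for proteins of 1159 and 1121 residues. The insert is shown in capitals, with 20 bases on each side, because it is annotated in Cd163-202 and not in Cd163-201. The forms, of 4443 and 4404 bases, also differ outside the stretch shown:
Cd163-201: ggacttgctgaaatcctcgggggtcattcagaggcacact
Cd163-202: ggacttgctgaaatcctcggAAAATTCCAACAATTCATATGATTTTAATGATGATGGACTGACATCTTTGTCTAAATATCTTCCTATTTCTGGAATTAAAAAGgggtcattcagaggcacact

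Trem2 was likewise split between coding transcripts. Trem2-202 holds an insert of 55 coding bases (chr17:48351691-48351745, plus strand of GRCm38), which also changes the frame after it and moves the annotated stop codon further on. The coding sequence has 750 bases with the stop codon in Trem2-202 and 684 in Trem2-201, for proteins of 249 and 227 residues. The insert is in capitals, with 20 bases on each side, and the forms, of 1056 and 1088 bases, also differ outside this stretch:
Trem2-201: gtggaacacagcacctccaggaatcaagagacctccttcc
Trem2-202: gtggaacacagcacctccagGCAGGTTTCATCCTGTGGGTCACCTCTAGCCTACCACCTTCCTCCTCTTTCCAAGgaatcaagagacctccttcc
Trem2-201 had 5, 5 and 2 reads in cold 7, 12 and 16, against 10, 19 and 10 in ctrl 5, 6 and 10. Trem2-202 had 2, 8 and 3 reads in the cold mice, and 6, 5 and 4 in the ctrl mice. Reads on Trem2-201, not scaled to library size, were thus fewer in every cold mouse, while reads on Trem2-202 overlapped. The share of all transcripts without overlap was not counted, and the contrast between these forms was not tested. Trem2-201 took 38.7% of Trem2 reads in the cold (12 of 31, exact binomial 95% interval 21.8% to 57.8%) and 59.1% in ctrl mice (39 of 66, 46.3% to 71.0%). These intervals overlap and cover counting error only. Per mouse, Trem2-201 took 55.6%, 31.2% and 33.3% of Trem2 reads in cold 7, 12 and 16. In ctrl 5, 6 and 10 it took 55.6%, 61.3% and 58.8%, so that cold 7 equalled ctrl 5. With so few reads neither transcript passed the filter on low counts, and no test was made.

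**Figure D5:**
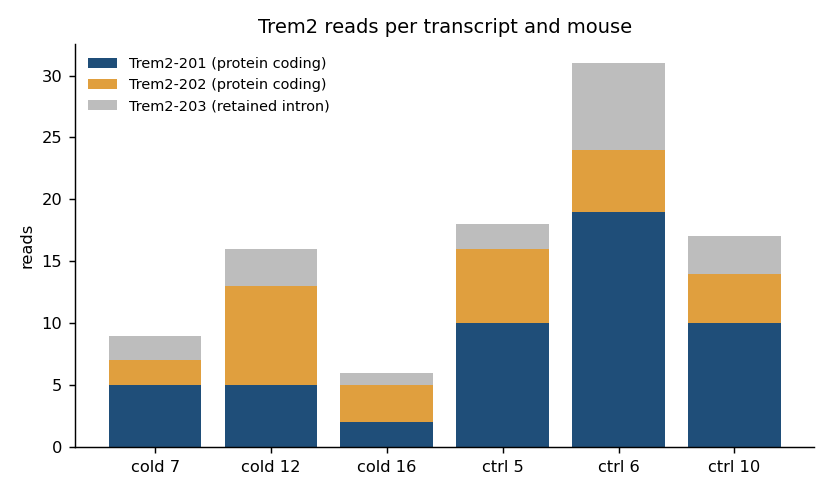
Trem2 reads per mouse (vertical axis), stacked by annotated transcript, with the cold mice left of the ctrl mice. Cold mice had 6 to 16 reads in all and 2 to 5 on Trem2-201, against 17 to 31 and 10 to 19 in ctrl mice, whose libraries were not of equal depth.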

How the data were processed

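The files the authors deposited hold unnormalised counts of reads on annotated transcripts, with 2 files for each of 6 mice (X1 and X2), and list only transcripts with at least 1 read. Reads were aligned with minimap2 to GRCm38, per the submitters' processing notes. The sources used here do not give the aligner's version, the counting tool or its handling of strand and of reads with several matches. The 2 files of a mouse differed by about the sampling noise (chi-square per degree of freedom 1.02 to 1.06) and were summed as 1 sample. Of 61729 transcript identifiers 61538 matched GENCODE M21 with versions ignored, and the 191 others held 0.139% to 0.165% of reads and entered only the transcript tests.

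Depth was 726283 to 1341592 reads per mouse, so 1 read is 0.747 to 1.38 CPM and a count of 0 allows up to 2.24 to 4.14 CPM (3 reads). Floors and intervals cover counting error only. CPM of genes is relative to reads on genes.

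The quasi-likelihood test of edgeR 4.0.16 in R 4.3.3 was run over all genes and over all transcripts, after TMM and filterByExpr (minimum count 10). P-values were adjusted by Benjamini-Hochberg, and 0.05 was the threshold. SE was derived from the F statistic. The scripts were tested on simulated data. Alternatives were DESeq2 1.42.0, limma-voom (limma 3.58.1), other size factors and filters, single files, coding transcripts only and leaving out each mouse. The members and lists were chosen with earlier results of these data known. Named are the markers, and of each list the genes past the threshold or the 3 with the smallest p. Lists of other cell types give only those past it and those a result turns on. Also named are the 5 genes most like the general markers and transcripts with at least 10 reads. Other genes were chosen after their values were seen (C1qa, C1qb, C1qc, Lyve1, Folr2, Timd4, Spp1, Itgax, Atp6v0d2, Tfec, Ly6c2, Csf1, Ccl2, Cx3cl1, Tyrobp, Tnf, Il1b, Il6, Nos2, Cd24a, Zbtb46, Irf8, Cfd, Lep and those of the closing section).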

Additional observations from a re-analysis of the deposited data

How the results depend on the processing

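The count of markers past the threshold was 0 in all 14 alternatives, as were the counts of their transcripts and of genes with changed usage in the 9 run for each. With X2 files alone Trem2 and Ccr2 were not tested, so these genes had 13 alternatives each. The number of all genes past it, 64, was 371 with no filter on low counts, 38 with X2 files alone and 35 to 199 with each mouse left out. Among the listed genes without the markers it was 6, against 19 with no filter and 4 to 15 with each mouse left out. Of 138 log2 fold changes of markers under alternatives, 124 kept their sign and 14 did not, all short of the threshold. With a mouse left out, the sign turned within these ranges: Mrc1 -0.0034 to 0.367, Lyz2 -0.4958 to 0.0853, Cd68 -0.321 to 0.2483, Adgre1 -0.4279 to 0.0101, Csf1r -0.1391 to 0.0444 and Gpnmb -0.5697 to 0.529. It also turned for Cd68 with limma-voom (-0.0655), no filter (-0.0155) and X1 files (-0.0442), for Csf1r with X1 files (0.0167) and for Gpnmb with X2 files (0.5173). The causes were not tested. Leaving Retnla out moved the log2 difference of the resident sum to 0.18. No paired analysis was possible because mouse numbers differ between the groups. The depth limits Trem2, Gpnmb and Ccr2 most, with 97 to 156 reads each.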

Other observations

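Some macrophage genes were highest in cold 7, and others were not. These were picked after their values were seen, and no test was made. Arg1, the arginase of alternatively activated macrophages, had 19 reads in cold 7 and 0 in cold 12 and cold 16, against 2, 1 and 3 reads in ctrl 5, 6 and 10. Chil3, a chitinase-like secreted protein of macrophages, had 9 reads in cold 7, 1 in cold 12 and 0 in cold 16, against 2, 2 and 1 in the ctrl mice. The chemokine gene Ccl7 had 29.0, 5.87 and 2.55 CPM in cold 7, 12 and 16, against 10.7, 8.96 and 26.5 CPM in ctrl 5, 6 and 10, so that ctrl 10 was close to cold 7. Mmp12, a macrophage elastase, had 34.5, 29.4 and 11.5 CPM in cold 7, 12 and 16, against 16.0, 61.2 and 25.6 CPM in ctrl 5, 6 and 10, and ctrl 6 was also the highest mouse for Trem2 and Gpnmb.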
